A study of Mus musculus with 24 samples.

Results

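The cell cycle and proliferation genes described here are 34 mouse genes chosen by name for their known roles in DNA replication, mitosis and the control of both. The choice sets no limit on any measured value, but it was made with earlier results of these data known. The table of frontal lobe expression has a value for 32 of the 34 among its 18057 genes. Pcna and Mcm7, which encode the replication clamp and a helicase subunit, were without one, so 32 genes are counted throughout. The study measured RNA from the frontal lobe of 24 mice on Affymetrix mouse expression arrays, with 6 arrays in each of 4 groups that differ in Arg1. Arg1 encodes arginase 1, the urea cycle enzyme of the liver that splits arginine into ornithine and urea, and the title of the study links its loss to poor myelination after birth. They are mice without Arg1 (KO), such mice after a viral treatment (TR), mice heterozygous for Arg1 (HE) and wild types (WT). TR mice carry the knockout as KO mice do, and HE mice keep a functional copy of the gene. The sources used here do not give the vector, its cargo, its dose, its timing, the strain or the allele.

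Age and array batch are unevenly spread over the groups. Batch 1 held 3 KO and 3 WT arrays, 1 of each at postnatal days 13, 14 and 15. Batch 2 held 3 HE and 3 TR arrays at the same 3 ages. Batch 3 held 3 arrays of every group, all at day 14. The labels call these sequencing batches although arrays were used. Replicates 1 to 3 of each group lie in batch 3, and replicates 4, 5 and 6 are the arrays of days 13, 14 and 15.

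A dividing cell passes from growth (G1) through DNA synthesis (S phase) to mitosis. D-type cyclins open the way out of G1, the minichromosome maintenance (MCM) helicase and enzymes of nucleotide supply serve DNA synthesis, and cyclin A, cyclin B, Cdk1 and the Aurora and Polo kinases drive mitosis until Cdc20 and Ube2c mark mitotic proteins for destruction. In the brain of the second postnatal week most neurons have stopped dividing, and dividing cells are found among oligodendrocyte precursors, other glia, microglia and vessel cells. As the tissue was measured in bulk, fewer dividing cells and less RNA per dividing cell cannot be told apart.

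Many genes of the later cell cycle share promoter elements, so the promoters of 5 members are shown here. Rrm2 and Ccnb2 are the S phase gene and the mitotic gene with the largest difference between KO and WT mice. Mcm6, Cdk1 and Mki67 were added after their values were seen, as examples from the age comparison. Nusap1, Bub1b and Bub1 had smaller limma adjusted p-values with age than Cdk1 and Mki67 but are not shown. The sequences are from RefSeq, build GRCm38.p6, and give the 250 bases before the gene's start, 5′ to 3′ on the gene's own strand. Rrm2 lies at chr12:24708004-24708253 (plus strand), Mcm6 at chr1:128359706-128359955 (minus), Cdk1 at chr10:69352913-69353162 (minus), Mki67 at chr7:135716380-135716629 (minus) and Ccnb2 at chr9:70421555-70421804 (minus). Capitals mark letters that match, on either strand, the CCAAT box, the cell cycle homology region (CHR) or an E2F element. The CHR was searched as TTTGAA and also as TTTAAA. The E2F element was searched as TTCCCGC, further as TTGGCGC, further as TTCGCGC and lastly as TTGCCGC.
Rrm2: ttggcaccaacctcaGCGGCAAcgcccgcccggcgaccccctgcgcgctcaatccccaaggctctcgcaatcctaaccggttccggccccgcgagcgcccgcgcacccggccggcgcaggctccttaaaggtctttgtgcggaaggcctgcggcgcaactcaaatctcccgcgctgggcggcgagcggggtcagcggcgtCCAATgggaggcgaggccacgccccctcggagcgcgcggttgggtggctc
Mcm6: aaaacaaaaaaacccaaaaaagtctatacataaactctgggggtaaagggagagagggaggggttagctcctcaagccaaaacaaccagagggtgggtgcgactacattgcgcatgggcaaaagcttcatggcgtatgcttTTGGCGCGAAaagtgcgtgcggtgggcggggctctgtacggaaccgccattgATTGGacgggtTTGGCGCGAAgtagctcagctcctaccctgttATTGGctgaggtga
Cdk1: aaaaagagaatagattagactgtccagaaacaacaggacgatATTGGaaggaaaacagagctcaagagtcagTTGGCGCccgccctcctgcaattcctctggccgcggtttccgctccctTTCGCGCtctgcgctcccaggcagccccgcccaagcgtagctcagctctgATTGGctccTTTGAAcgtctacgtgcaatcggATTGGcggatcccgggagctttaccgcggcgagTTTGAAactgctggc
Mki67: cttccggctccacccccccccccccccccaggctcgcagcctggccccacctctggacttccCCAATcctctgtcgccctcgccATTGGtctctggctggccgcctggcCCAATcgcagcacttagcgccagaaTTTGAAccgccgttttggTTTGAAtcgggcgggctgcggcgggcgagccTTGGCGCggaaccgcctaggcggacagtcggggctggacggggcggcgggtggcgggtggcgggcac
Ccnb2: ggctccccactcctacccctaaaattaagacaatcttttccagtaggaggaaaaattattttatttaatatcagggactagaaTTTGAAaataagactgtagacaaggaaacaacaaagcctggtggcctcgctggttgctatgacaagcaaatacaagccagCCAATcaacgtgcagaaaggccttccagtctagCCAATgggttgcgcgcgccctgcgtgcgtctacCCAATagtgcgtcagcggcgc
Cdk1 and Mki67, which encode the main mitotic kinase and the proliferation marker Ki-67, each held 3 CCAAT boxes and 2 CHR elements, with 2 E2F matches in Cdk1 and 1 in Mki67. Mcm6, a subunit of the replicative helicase, held 2 CCAAT boxes, no CHR and 4 E2F matches that overlap in pairs. Rrm2, the small subunit of ribonucleotide reductase, held 1 CCAAT box, no CHR and 1 E2F element. Ccnb2, which encodes the mitotic cyclin B2, held 3 CCAAT boxes, 1 CHR and no E2F match. Nusap1, the member with the lowest age difference, had no match to any of these elements.

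RefSeq promoters were at hand for 25 of the 32 measured genes. A CCAAT box was found in 21 of these 25 (84%), against 33.8% of all 32851 promoter windows of that length. At least 2 CCAAT boxes were found in 13 (52%), against 10.1% of all windows. A CHR was found in 14 (56%), against 25.2%, and an E2F element in 7 (28%), against 7.89%. A member counted if any window of the gene matched, whereas the background counts each window by itself, so the shares are in unlike units. CCAAT read on the opposite strand shares letters with TTGGCGC, so 1 run can count for both. These matches describe letters in a window and are not evidence of binding.

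The 32 genes moved together from array to array. After group and batch means were removed, the median Pearson r over their 496 pairs was 0.41 across the 24 arrays, and 456 pairs had an r above 0 (range -0.37 to 0.92). The median r of the members with other genes was 0.0047. Values above and below 0 offset each other in that median, so it cannot show how particular the 0.41 is to this set. Genes read on 1 array share the tissue piece, the RNA and the hybridization, so these values are a description. With the slope over age also removed, the median was 0.37 and 419 pairs lay above 0. Nusap1, a microtubule protein of the spindle, followed the mean of the other members most closely (r = 0.95), followed by Cdk1 (0.93), Mki67 (0.91) and Ube2c (0.90). Foxm1, a transcription factor of mitotic genes, had an r of -0.010 and Ccnd1, which encodes cyclin D1, of 0.082. These 2 genes therefore did not share the variation that most others had in common. Cyclin D2, encoded by Ccnd2, did share it (r = 0.76). With the slope over age also removed, Bub1b (-0.020) and Aurka (0.016) lay about as near 0 as Ccnd1 (-0.035) and Foxm1 (0.063).

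**Figure D1:**
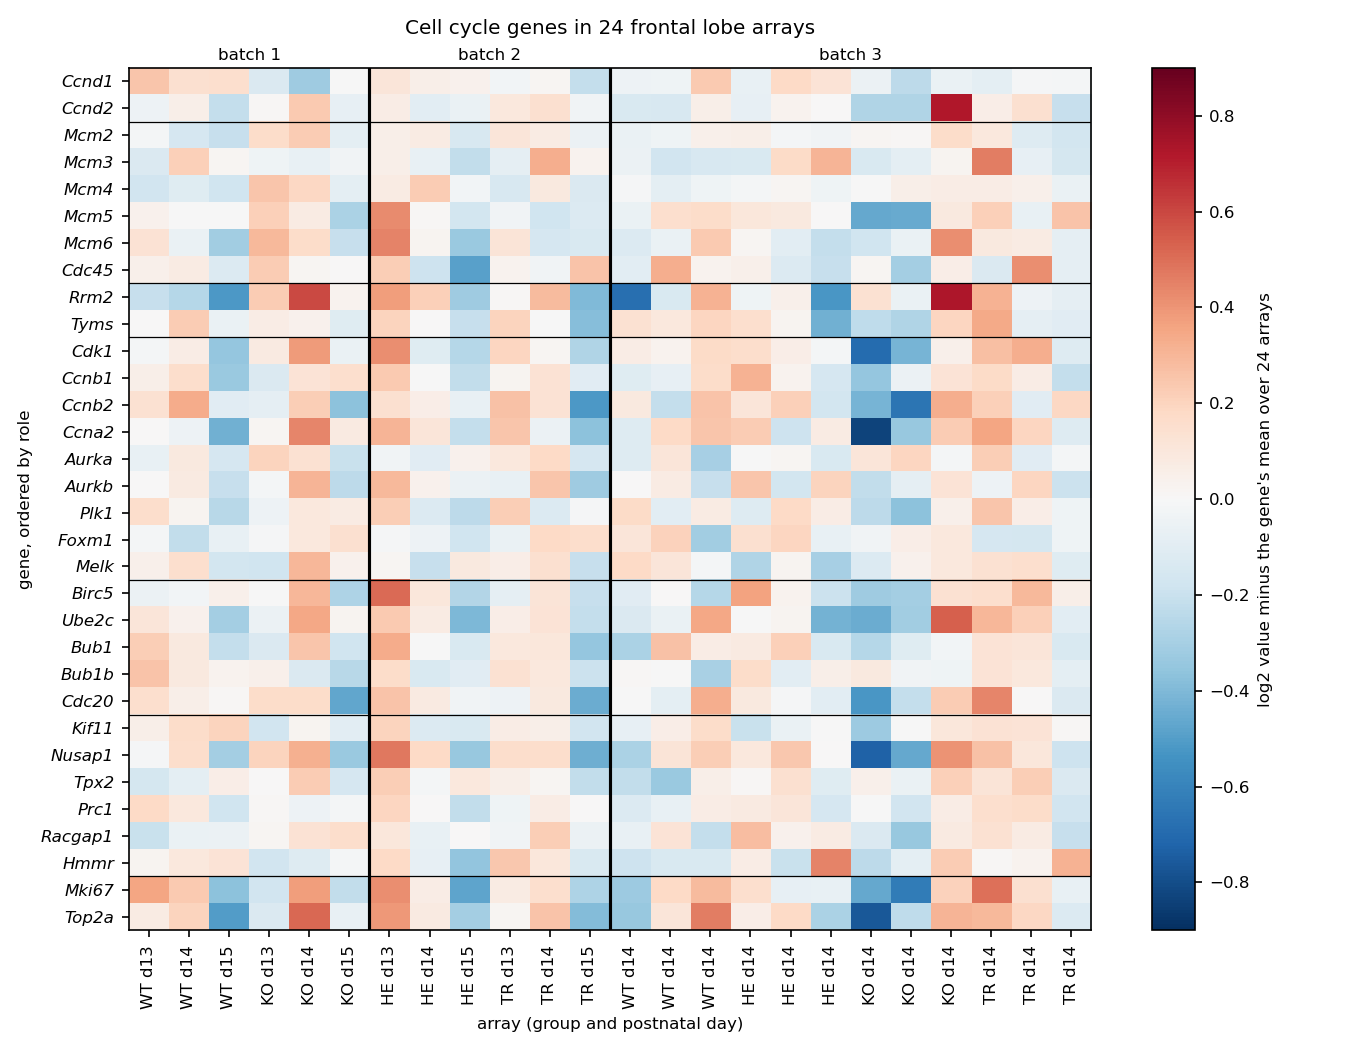
Log2 value minus the gene's own mean over 24 arrays (colour) for 32 cell cycle genes (vertical, lines separate roles) in each array (horizontal, group and postnatal day, thick lines between batches). KO replicate 3 is the highest of the 3 KO arrays of batch 3 for 29 of 32 genes, and the 4 day 15 arrays are low for most genes.

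Some KO arrays stood apart from the rest. Array medians over all genes lay between 6.71 and 6.79. On the leading principal component over all genes (17.8% of the variance) KO replicate 1 lay at -28.0 while the other 5 KO arrays lay between -11.6 and -5.03 and the 6 WT arrays between 3.31 and 18.0. The 3 KO arrays of batch 3 also differed most in the cell cycle genes. The mean of the 32 genes was 5.82 and 5.87 log2 in KO replicates 1 and 2 and 6.25 in KO replicate 3, and replicate 3 was the highest of the 3 for 29 of the 32 genes, against 39.1% of all genes. The median SD of a member in those 3 arrays was 0.231 log2, where the other 7 sets of 3 arrays had 0.134 to 0.207. The title of KO replicate 3 begins with other letters than those of KO replicates 1 and 2, and theirs differ from those of the other groups in that batch. What the letters stand for is not stated, and their part in these differences was not tested.

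In the knockout frontal lobe 1 of the 32 cell cycle genes was called against wild type. Ccnd1, the cyclin that carries growth signals into G1, was lower in KO than in WT. The genes of DNA synthesis lay on both sides of 0 without a call, with Rrm2, Mcm4, Mcm2 and Mcm6 above it and Mcm5, Tyms, Cdc45 and Mcm3 below it, and so did the mitotic genes. Differences were estimated with limma over all 24 arrays with group and batch as terms. They were called at a Benjamini-Hochberg adjusted p under 0.05 over 18057 genes. By this rule 1 of 32 members was called, in the lower direction, against 4.48% of all genes called lower and 7.97% called in either direction. The differences of 11 members were above 0 (46.3% of all genes) and those of 21 below 0, with a median of -0.025 log2 (all genes -0.011). Since the members moved together from array to array, such counts, here and in the later group comparisons, are not 32 independent results.

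Ccnd1 (ENSMUSG00000070348) had log2 values of 8.19, 8.01 and 8.32 in the KO arrays of batch 1 at days 13, 14 and 15, against 8.57, 8.47 and 8.47 in WT. In batch 3 the KO arrays had 8.27, 8.09 and 8.27 and the WT arrays 8.28, 8.29 and 8.56. Every KO array was below every WT array of its batch, by a narrow margin in batch 3. Ccnd1 was the 1 member of 32 that was lower in KO without overlap in both batches, as were 2.55% of all genes. The fitted difference was -0.25 ± 0.065 log2 (SE, 95% interval -0.38 to -0.12), a 1.19-fold lower level (limma adjusted p = 0.0172). Within batch 1 alone it was -0.33 (limma adjusted p = 0.0746) and within batch 3 alone -0.17 (limma adjusted p = 0.525), so neither batch carried the call by itself. Without KO replicate 5, the lowest array, it was -0.20 and no longer called (limma adjusted p = 0.0556), nor was it called in a fit of only the 12 KO and WT arrays (limma adjusted p = 0.0672). Without KO replicates 1 or 3 it stayed called at -0.27 in each case (limma adjusted p = 0.0158 and 0.0132).

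Ccnd2, the cyclin D of neural progenitors, showed 1 array far from the rest. Its KO values in batch 3 were 10.28, 10.28 and 11.28, against 10.42, 10.41 and 10.60 in WT, and in batch 1 they were 10.56, 10.79 and 10.48 against 10.51, 10.60 and 10.34. KO replicate 3 was above all 23 other arrays and the remaining KO and WT arrays overlapped. The fitted difference of 0.13 ± 0.114 (SE, limma adjusted p = 0.575) became -0.018 without that array.

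**Figure D2:**
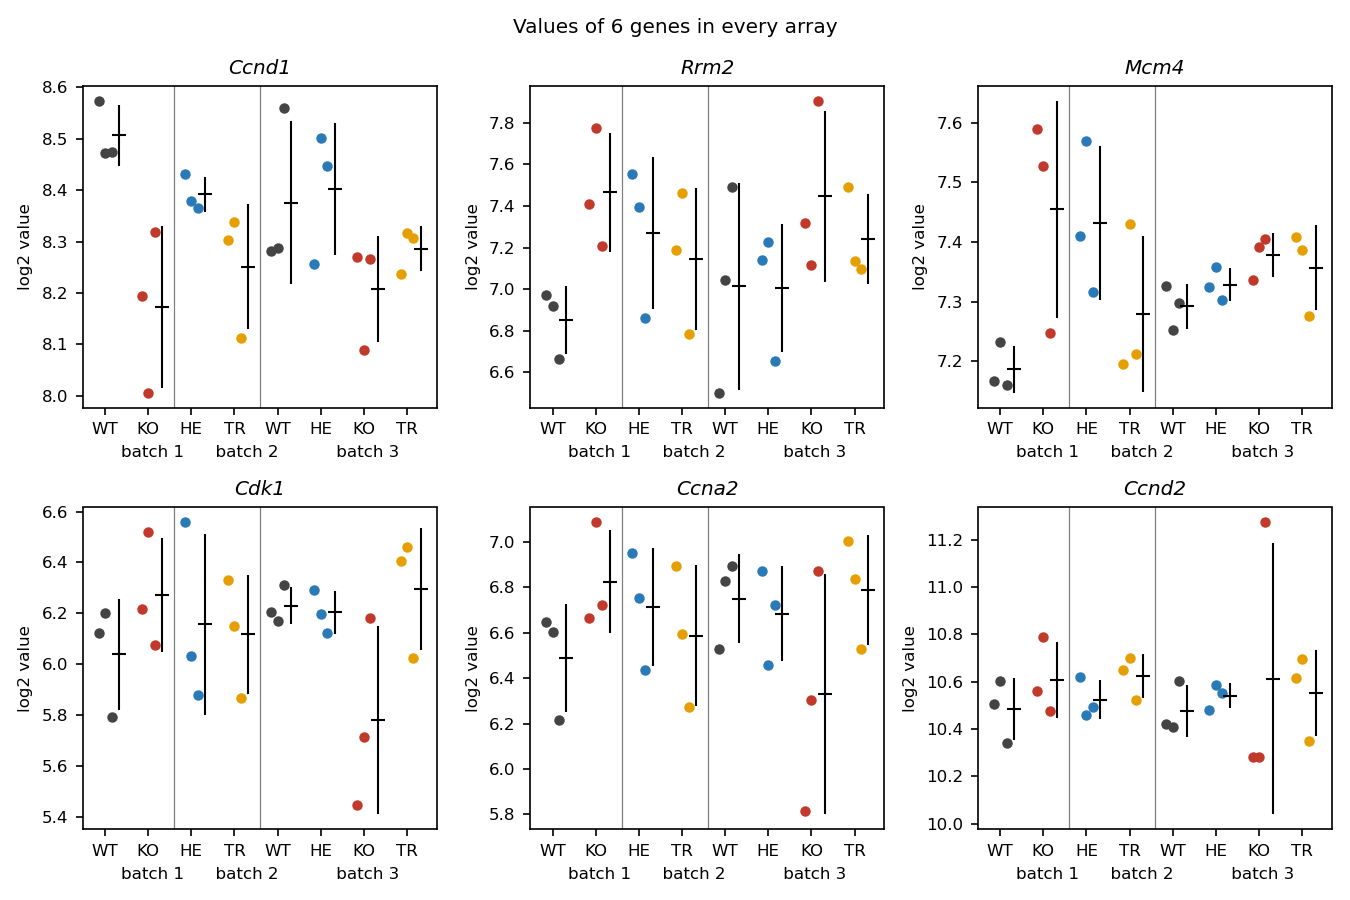
Log2 values of 6 genes in each of 24 arrays, by batch and group (points), with the mean ± SD of each set of 3 arrays (bars). KO points lie below WT points in both batches for Ccnd1 and above them for Mcm4, while the 3 KO points of batch 3 are far apart for Cdk1, Ccna2 and Ccnd2.

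Of the 6 genes of replication licensing and start 3 had a KO minus WT difference above 0 (median 0.045 log2), as had 1 of the 2 genes of nucleotide supply, and none was called. Rrm2 (ENSMUSG00000020649), which sets the supply of deoxynucleotides, had 7.41, 7.78 and 7.21 in the KO arrays of batch 1 against 6.97, 6.92 and 6.67 in WT. In batch 3 it had 7.32, 7.12 and 7.91 in KO and 6.50, 7.04 and 7.49 in WT. The groups did not overlap in batch 1 and did in batch 3. The fitted difference was the largest of the 32, 0.52 ± 0.169 log2 (SE, 95% interval 0.17 to 0.87, a 1.44-fold difference), just short of the threshold (limma adjusted p = 0.0575). It was called with the replicate block of batch and day (limma adjusted p = 0.0398), with age as a covariate (limma adjusted p = 0.0390) and without the batch term (limma adjusted p = 0.0450), but not in a fit of only the KO and WT arrays (limma adjusted p = 0.0889). In batch 1 alone it was 0.61 ± 0.142 and the 1 member called higher (limma adjusted p = 0.0281; 2.25% of all genes), while in batch 3 alone it was 0.43 (limma adjusted p = 0.502). Without KO replicate 3 it was 0.43 (limma adjusted p = 0.130) and without KO replicate 1 it was 0.56 (limma adjusted p = 0.0601).

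Mcm4 and Mcm2 encode subunits of the MCM helicase that unwinds DNA at replication origins. Mcm4 had 7.59, 7.53 and 7.25 in KO against 7.17, 7.23 and 7.16 in WT in batch 1. In batch 3 it had 7.34, 7.39 and 7.41 against 7.33, 7.25 and 7.30. It was the 1 member that was higher in KO without overlap in both batches (2.17% of all genes), with a difference of 0.18 ± 0.065 log2 (SE, limma adjusted p = 0.101). Mcm2 differed by 0.16 ± 0.066 (SE, limma adjusted p = 0.160). Of the other MCM subunits, Mcm6 differed by 0.10, Mcm3 by -0.011 and Mcm5 by -0.18, with limma adjusted p from 0.357 to 0.969. Tyms, the thymidylate synthase, differed by -0.15 ± 0.115 (SE, limma adjusted p = 0.495), the opposite sign to Rrm2. At an unadjusted limma p under 0.05 there were 3 members with a higher level (Rrm2, Mcm4 and Mcm2; 9.19% of all genes) and 2 with a lower one (Ccnd1 and Kif11; 12.4% of all genes).

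The mitotic genes gave no call. Of 9 kinases, cyclins and Foxm1, 3 differed above 0 and 6 below, from -0.25 (Ccnb2, limma adjusted p = 0.361) to 0.14 (Aurka, the Aurora A kinase of the spindle poles, limma adjusted p = 0.354). Of 5 genes of the spindle checkpoint and of protein destruction, 4 lay below 0, among them Cdc20 at -0.18 ± 0.133 (SE, limma adjusted p = 0.478). Of 6 genes of the spindle and of cell division, 4 lay below 0, with Kif11, a motor that pushes spindle poles apart, lowest at -0.17 ± 0.081 (SE, limma adjusted p = 0.206). Mki67 differed by -0.21 ± 0.168 log2 (SE, 95% interval -0.56 to 0.14, limma adjusted p = 0.524). Top2a, the topoisomerase that untangles chromosomes, differed by -0.060 ± 0.184 (SE, 95% interval -0.44 to 0.32, limma adjusted p = 0.900). The intervals of both markers of dividing cells reach to either side of 0.

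**Figure D3:**
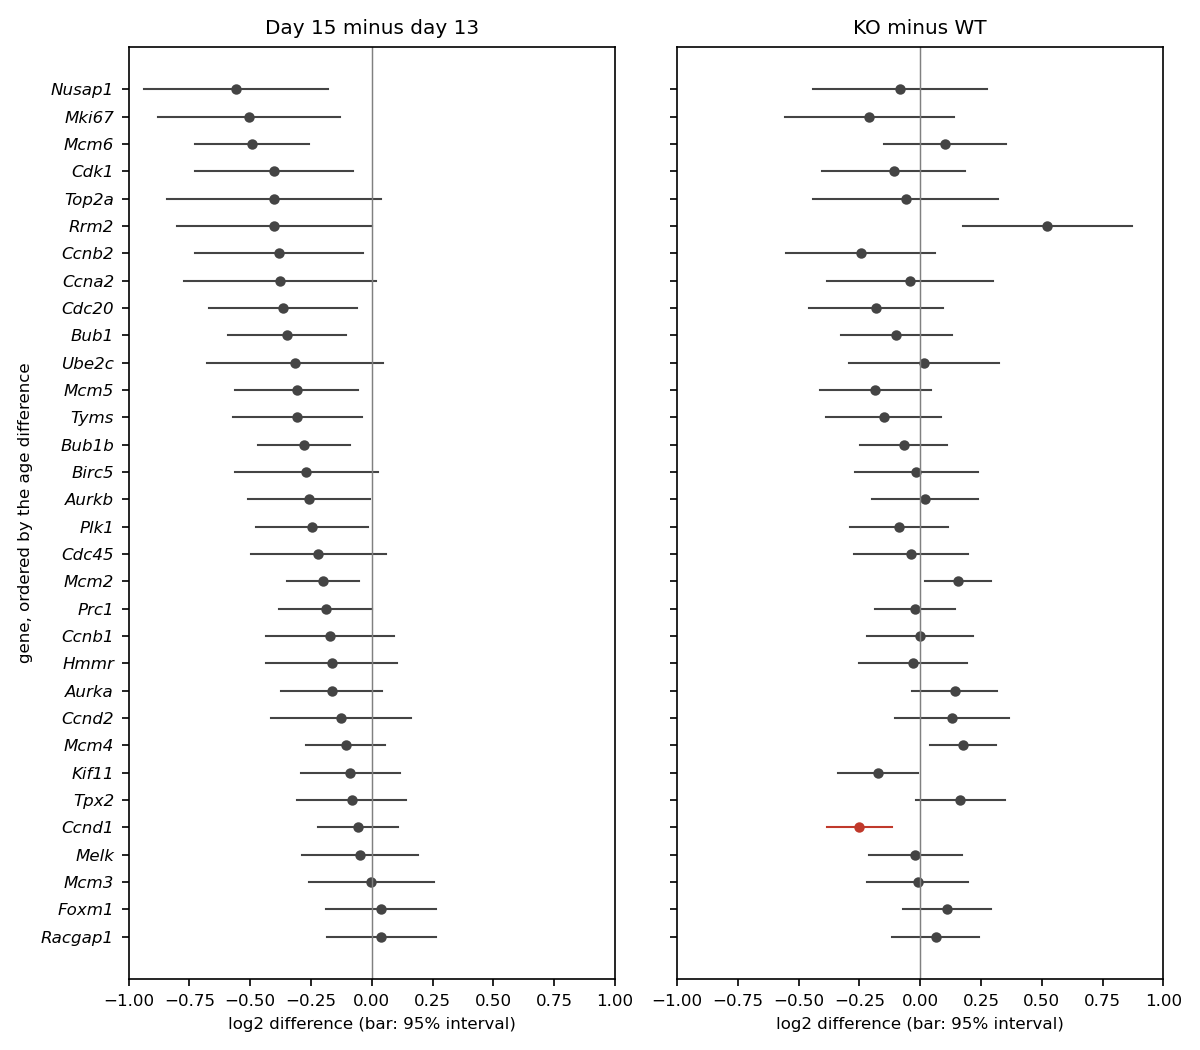
Fitted log2 difference with its 95% interval for each of 32 genes, for day 15 minus day 13 (left) and KO minus WT (right). Red marks an adjusted p under 0.05, which holds for Ccnd1 in KO minus WT, and 30 of the 32 points on the left lie below 0.

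Batches 1 and 3 both hold KO and WT arrays, and no change of the KO minus WT difference between them was called for any member. In batch 1 the differences of 20 of the 32 genes were above 0 (49% of all genes), with a median of 0.074 log2. In batch 3 those of 20 were below 0 (54.1% of all genes), with a median of -0.088. Batch 1 had 5 members higher in KO without overlap (11% of all genes) and 3 lower (13.7% of all genes), while batch 3 had 1 of each, Mcm4 and Ccnd1. In batch 3 alone limma called 0 of 32 members (0.975% of all genes). Cdk1 had 6.22, 6.52 and 6.08 in KO against 6.12, 6.20 and 5.79 in WT in batch 1, but 5.45, 5.72 and 6.18 against 6.21, 6.17 and 6.31 in batch 3. KO was thus the higher group at each age in batch 1, and in batch 3 the first 2 were far below WT while replicate 3 reached its range. Cyclin A2, encoded by Ccna2 and needed for S phase and entry into mitosis, had the same pattern. Its KO arrays had 6.67, 7.09 and 6.72 in batch 1, all above WT at 6.65, 6.60 and 6.22. In batch 3 they had 5.81, 6.30 and 6.87, against 6.53, 6.83 and 6.90 in WT.

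The change of the KO minus WT difference from batch 1 to batch 3 was -0.68 ± 0.259 log2 (SE) for Cdk1 (limma unadjusted p = 0.0153, adjusted p = 0.498). For Ccna2 it was -0.76 ± 0.302 (SE, limma unadjusted p = 0.0202, adjusted p = 0.512). These were the 2 members with an unadjusted p under 0.05, both in the lower direction (4.57% of all genes lower, 8.81% in either direction). After adjustment limma called 0 of 32 members (0% of all genes), so no conclusion about the members is drawn from these 2. Batch 1 spans 3 ages and batch 3 holds 1, so batch and age mix cannot be told apart here. In contrast to these, Ccnd1 and Rrm2 kept their sign in both batches.

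**Figure D4:**
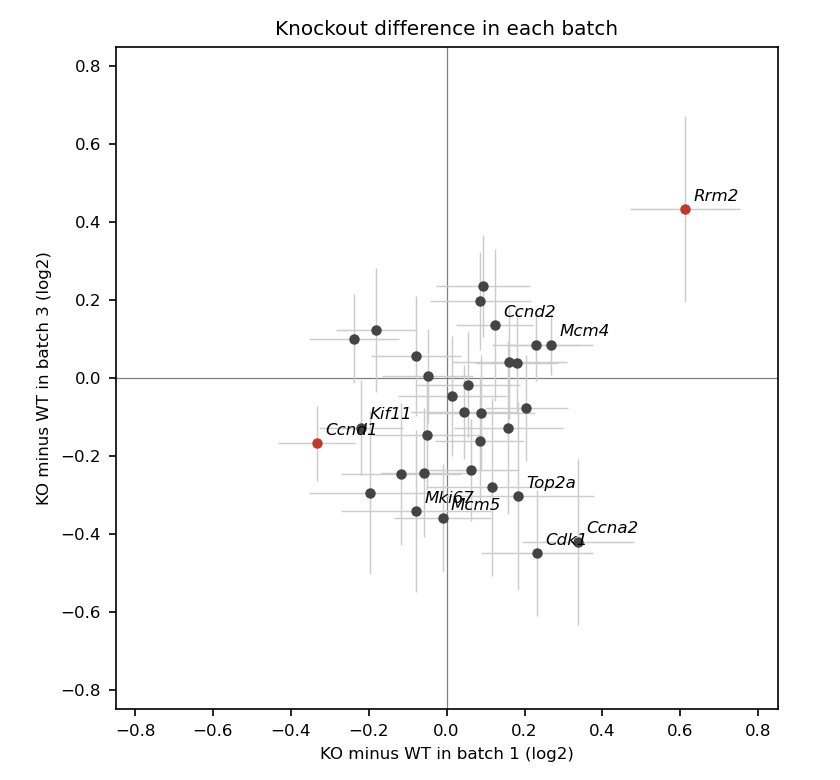
KO minus WT difference (log2) in batch 1 (horizontal) and batch 3 (vertical) for 32 genes, with standard errors as bars and Ccnd1 and Rrm2 in red. Cdk1 and Ccna2 lie above 0 in batch 1 and below 0 in batch 3, while Ccnd1 is below 0 and Rrm2 above 0 in both.

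Treated knockouts were compared with untreated ones to see whether these genes differ after the viral treatment. No member was called in TR against KO, while 3.11% of all genes were. That background rests on the batch term, since the 561 genes called became 28 without it, 31 with only the 2 groups and 0 where batch was a random block. Only batch 3 holds both groups. The differences of 23 members were above 0 (57.3% of all genes) with a median of 0.11 log2 (all genes 0.024), and 0 of 32 had an unadjusted limma p under 0.05 (10.2% of all genes in the higher and 7.53% in the lower direction). The median was 0.018 without KO replicate 1, 0.15 without KO replicate 3, 0.070 without the batch term and 0.059 where batch was a random block. Over the 7 members not dimmer than the median gene it was -0.034. That is the value of Ccnd2, which was 0.19 without KO replicate 3, so no conclusion about dimmer members is drawn.

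Mki67 had 7.31, 6.96 and 6.75 log2 in the TR arrays of batch 3 and 6.35, 6.19 and 7.02 in KO. Cdk1 had 6.41, 6.46 and 6.02 in TR and 5.45, 5.72 and 6.18 in KO. In both genes KO replicates 1 and 2 were below all TR arrays, and KO replicate 3 lay within the TR range. The highest difference over the 32 genes was that of Mki67, 0.37 ± 0.206 log2 (SE, limma adjusted p = 0.360), followed by Cdk1 at 0.31 ± 0.175 (SE, limma adjusted p = 0.359). Without KO replicate 1, Cdk1 differed by 0.14 (limma adjusted p = 0.747). Hmmr, a microtubule-associated protein of the spindle, had the smallest adjusted p (0.26 ± 0.132, SE, limma adjusted p = 0.303).

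The 2 genes that stood out between KO and WT did not reach the threshold between TR and KO. Ccnd1 had 8.24, 8.32 and 8.31 in the TR arrays of batch 3, so the TR and KO values overlapped. Its TR minus KO difference was 0.11 ± 0.079 log2 (SE, 95% interval -0.05 to 0.28, limma adjusted p = 0.489), and its TR minus WT difference was -0.14 ± 0.079 (SE, 95% interval -0.30 to 0.03, limma adjusted p = 0.885). These comparisons share samples with KO against WT and are given side by side. Rrm2 had 7.49, 7.14 and 7.10 in TR, with a TR minus KO difference of -0.34 ± 0.207 (SE, limma adjusted p = 0.413), the lowest of the 32. Mcm2 followed with -0.14 ± 0.081 (SE, limma adjusted p = 0.397). Foxm1 was the 1 member lower in TR than in KO without overlap, by a narrow margin, with 4.56, 4.56 and 4.68 against 4.68, 4.77 and 4.81 (6.47% of all genes).

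Within batch 3 alone the TR minus KO differences ran from -0.20 to 0.52 log2 with a median of 0.14. Over all arrays they ran from -0.34 to 0.37. Again none was called in batch 3 alone (1.02% of all genes). There 25 of 32 members were above 0 (56.1% of all genes) and 4 had an unadjusted limma p under 0.05, all higher (Mki67, Cdk1, Ccna2 and Mcm5; 8.29% of all genes). Cdk1 differed by 0.52 ± 0.162 log2 (SE, limma adjusted p = 0.161). Mcm5 differed by 0.41 ± 0.138 (SE, limma adjusted p = 0.191), from 7.49, 7.21 and 7.53 in TR against 6.82, 6.82 and 7.36 in KO.

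The heterozygotes gave a second control for the knockout. In KO against HE 0 of 32 members were called (1.98% of all genes). The differences of 22 members were below 0 (53.3% of all genes), with a median of -0.13 log2 (all genes -0.010). All 6 genes of the spindle and of cell division lay below 0, between -0.30 and -0.034. Both chromosome genes, Mki67 at -0.28 and Top2a at -0.15, did too. Only batch 3 holds both groups, and in a fit of that batch alone 21 members were below 0 (54.6% of all genes). There 4 of the 6 spindle and cell division genes lay below 0 and 2 above, and both chromosome genes stayed below. Ccnd1 was again the member with the smallest p, at -0.24 ± 0.079 log2 (SE, limma adjusted p = 0.123). Its HE arrays had 8.43, 8.38 and 8.37 in batch 2 and 8.26, 8.50 and 8.45 in batch 3, where HE replicate 1 lay below 2 of the 3 KO arrays. Mcm5 was the other member with an unadjusted limma p under 0.05 in the lower direction (8.5% of all genes), at -0.32 ± 0.135 (SE, limma adjusted p = 0.260).

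The 3 remaining comparisons held no call among the members. In TR against HE, which share batches 2 and 3, 17 members were above 0 (52.5% of all genes) and 15 below, and limma called 0 of all genes (0%), with 4.39% of genes and 0 members at an unadjusted p under 0.05. Ccnd1 had 8.30, 8.34 and 8.11 in the TR arrays of batch 2, all below the HE arrays there (5.44% of all genes), with a difference of -0.13 ± 0.065 over both batches (SE, limma adjusted p = 0.999). In TR against WT 26 members were above 0 (53.6% of all genes), 0 of 32 were called (0.00554% of all genes) and 0 had an unadjusted limma p under 0.05 (5.72% of all genes). Hmmr had the largest difference there, 0.23 ± 0.132 (SE, limma adjusted p = 0.882). In HE against WT 25 members were above 0 (50.4% of all genes), 0 of 32 were called (0.00554% of all genes) and 0 had an unadjusted limma p under 0.05 (4.27% of all genes). Birc5, an inhibitor of cell death that also guides chromosome segregation, was highest there, at 0.27 ± 0.150 (SE, limma adjusted p = 0.997). HE and WT meet in batch 3 alone, and within it 18 members were above 0 (49.4% of all genes) and 14 below. TR and WT also meet in that batch alone, where 26 members were above 0 (52.4% of all genes). HE arrays enter both TR against HE and HE against WT, and WT arrays both of the last 2, so these values are not independent.

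Over postnatal days 13 to 15 the cell cycle genes were lower at the later age in nearly every member, without a call for any single gene. The age difference was fitted as a slope over days, with group and batch as terms, and is given as day 15 minus day 13. Batch 3 holds day 14 alone, so the slope rests on batches 1 and 2, with 1 array per group and day. The difference was below 0 for 30 of 32 members, against 47.9% of all genes, with a median of -0.25 log2 (all genes 0.0067). The number called was 0 of 32 (0.0166% of all genes), and 14 had an unadjusted limma p under 0.05 with a lower level (5.79% of all genes), none with a higher one (7.65% of all genes). Because the members moved together from array to array, these and the later age counts are not 32 independent results.

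Mcm6 (ENSMUSG00000026355), the helicase subunit whose promoter carried the E2F pairs, had the smallest p. Its log2 values at day 13, in the order WT, HE, KO, TR, were 6.67, 6.99, 6.83 and 6.66. At day 14 they were 6.49, 6.57, 6.71 and 6.39, and at day 15 they were 6.23, 6.21, 6.33 and 6.41. All day 15 values were below all day 13 values. The difference was -0.49 ± 0.113 log2 (SE, 95% interval -0.73 to -0.26, a 1.41-fold difference) with limma adjusted p = 0.0979.

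Nusap1 (ENSMUSG00000027306) had the lowest difference of the 32. It had 6.14, 6.63, 6.35 and 6.31 at day 13 and 5.84, 5.81, 5.82 and 5.71 at day 15 in WT, HE, KO and TR. The 4 day 15 arrays lay close to each other and below all other arrays of batches 1 and 2. Its difference was -0.56 ± 0.182 (SE, 95% interval -0.94 to -0.18, limma adjusted p = 0.191). In a fit of batches 1 and 2 alone, Mcm6 and Nusap1 were called (limma adjusted p = 0.0159 and 0.0420). Mki67 had 7.17, 7.24, 6.64 and 6.89 at day 13, 7.05, 6.88, 7.19 and 6.97 at day 14 and 6.44, 6.34, 6.59 and 6.54 at day 15. Its day 13 value in KO was low and close to the KO value of day 15, while the other 3 groups showed wider gaps. Its difference was -0.51 ± 0.181 (SE, limma adjusted p = 0.228).

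**Figure D5:**
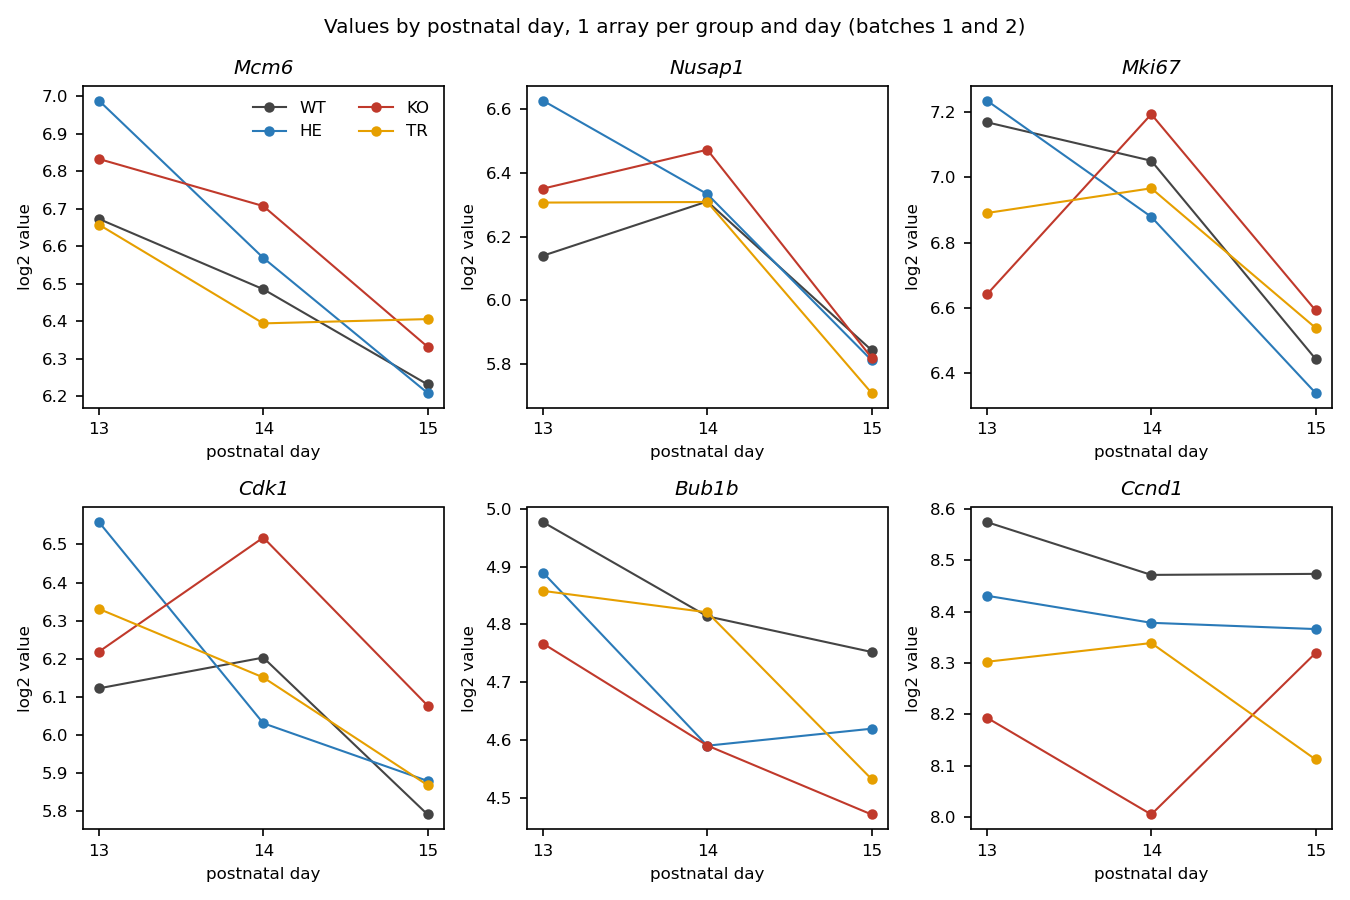
Log2 values of 6 genes at postnatal days 13, 14 and 15 in batches 1 and 2, with 1 array per group and day and 1 line per group. For Mcm6, Nusap1, Mki67 and Cdk1 the 4 values of day 15 lie below the 4 of day 13, whereas Ccnd1 differs more between groups than between days.

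The median age difference was below 0 in each role. All 6 measured genes of replication licensing and start were below 0, with a median of -0.21 log2. Mcm3 was at -0.0014 and Mcm6 was the lowest. Both genes of nucleotide supply were below 0, Rrm2 at -0.40 ± 0.194 (SE, limma adjusted p = 0.370) and Tyms at -0.31 ± 0.128 (SE, limma adjusted p = 0.298). Of the 9 kinases, cyclins and Foxm1, 8 were below 0, with Cdk1 lowest at -0.40 ± 0.157 (SE, limma adjusted p = 0.267). All 5 genes of the checkpoint and of protein destruction were below 0, between -0.37 and -0.27. Among these, Bub1b and Bub1, kinase-related proteins that hold mitosis until chromosomes are attached, differed by -0.28 ± 0.091 and -0.35 ± 0.117 (SE, limma adjusted p = 0.191 and 0.201). Top2a was at -0.40 ± 0.213 (SE, limma adjusted p = 0.421). The roles nearest to 0 were the 6 genes of the spindle and of cell division, with a median of -0.13 and 5 of 6 below 0, and the 2 D-type cyclins, with a median of -0.092.

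Several members were near 0 with age. Foxm1 differed by 0.038 ± 0.109 and Racgap1, a regulator of the cleavage furrow, by 0.039 ± 0.108 (SE), the 2 members above 0 (limma adjusted p = 0.919 and 0.917). Mcm3, Melk, Tpx2 and Kif11 lay between -0.088 and -0.0014. Among the D-type cyclins, Ccnd1 was at -0.058 ± 0.080 (SE, 95% interval -0.22 to 0.11, limma adjusted p = 0.810) and Ccnd2 at -0.13 ± 0.140 (SE, limma adjusted p = 0.743).

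Each group is 1 series of 3 arrays, and the sign of the age difference can be read in each. A lower value at day 15 than at day 13 in all 4 groups was found for 14 of 32 members, against 9.38% of all genes. They were Mki67, Cdk1, Ccnb2, Ccnd2, Mcm2, Mcm5, Mcm6, Bub1, Bub1b, Aurkb, Cdc20, Rrm2, Tyms and Nusap1. A higher value in all 4 groups was found for 0 members (12.8% of all genes). For 8 members the 4 day 15 arrays were all below the 4 day 13 arrays (2.97% of all genes), namely Mki67, Cdk1, Mcm2, Mcm6, Bub1, Bub1b, Tyms and Nusap1. In the order WT, HE, KO, TR the median member difference was -0.20, -0.41, -0.11 and -0.25 log2, with 26, 30, 20 and 27 members below 0. Of all genes 43.2%, 50.5%, 47.5% and 50.7% were below 0 in that order, with medians of 0.030, -0.0026, 0.017 and -0.0032 log2.

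The step lay between days 14 and 15 in 3 of the groups. From day 13 to day 14 the median member difference was 0.047 in WT, 0.13 in KO and 0.043 in TR, but -0.23 in HE. From day 14 to day 15 it was -0.25, -0.32 and -0.29 in those 3 and -0.17 in HE. The medians of all genes for these steps lay between -0.030 and 0.027 log2. The mean of the 32 genes was 6.15 ± 0.095 log2 (SD, n = 4) at day 13, 6.15 ± 0.073 at day 14 and 5.91 ± 0.041 at day 15. The 4 arrays of day 15 lay between 5.88 and 5.97 and those of day 14 in the same batches between 6.07 and 6.24, without overlap. The day 14 arrays of batch 3 ranged from 5.82 to 6.25 and did overlap with day 15. Their lowest 2 were KO replicates 1 and 2. Whether the age difference itself differs between groups was fitted as an interaction. KO differed from WT, and TR from HE, by no called member and by no called gene (0%). For KO against WT 0 members had an unadjusted limma p under 0.05 (3.54% of all genes), and for TR against HE 1 did (2.89% of all genes), Cdc45, a helicase partner. With 1 array per group and day, these interaction estimates are wide, with standard errors of 0.216 to 0.622 log2.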

How the data were processed

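The deposited table holds the authors' log2 expression values, 1 per Ensembl gene and array, made with affy and RMA per the submitters' processing notes. RMA corrects background, equalizes the distributions of the arrays and summarizes probes. The sources used here give no versions, no probe to gene map and no further step. The members' means over the 3 batches differed by a median of 0.028 log2, as did those of all genes, so the values look levelled between batches. Differences were taken with batch as a term because the groups are spread unevenly over batches. How an earlier levelling would affect the limma p-values was not tested. All 18057 genes were fitted with limma 3.58.1 in R 4.3.3 without a filter, with an intensity trend, two-sided tests and Benjamini-Hochberg adjustment over all genes. The number of arrays limits the precision, and where nothing ties arrays to separate litters, p-values measure the spread between these samples. The fits were tested on simulated data.

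Members, gene lists and tests were chosen with earlier results of these data known. Symbols come with the list of IDs. Values in every array were planned for called members, for the 2 highest and the 2 lowest differences of the KO against WT, TR against KO and age comparisons, and for Mki67, Top2a, Ccnd1 and Ccnd2. Further members were named after their values were seen. Other cell cycle genes, cell type markers and Arg1 itself as a check of the labels were not analysed here, since no table used here pairs the IDs with symbols. Alternatives were other batch terms, scalings, filters, weights and samples. Same-day arrays of KO and WT did not deviate together in batch 1 (r = 0.042, -0.15 and 0.083), and those of HE and TR did in batch 2 (r = 0.22, 0.25 and 0.16). Replicates 4 to 6 share their day across groups, and a block of batch and day was an alternative. Replicate numbers otherwise follow deposition order.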

Additional observations from a re-analysis of the deposited data

Results flagged for a closer look

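Cdk1 in WT replicate 6, the wild type at day 15 of batch 1, had a log2 value of 5.79, apart from the other 5 WT arrays at 6.12 to 6.31. It was the 1 array that stood apart by Dixon's test among 56 sets of 6 arrays, where chance gives about 2.8. The WT arrays of the other ages and of batch 3 are compared here across batches, and the day 15 arrays of HE, KO and TR had 5.88, 6.08 and 5.87.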

How the results depend on the processing

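The count of members called in KO against WT was 1 and became 2, Ccnd1 and Rrm2, with no batch term, batch as a random block, a renewed quantile normalization, arrays centred on their medians, genes dimmer than the median gene left out, array weights, age as a covariate, and the replicate block of batch and day. It was 0 with only the 2 groups and in batch 3 alone. Leaving out 1 array gave 0 (without KO replicate 5) to 2 (without KO replicate 2 or WT replicate 3). Over these settings Rrm2 had a limma adjusted p of 0.0197 to 0.502 and Ccnd1 of 0.0109 to 0.525. Over the 7 members that are not dimmer than the median gene, the median KO minus WT difference became 0.13 and the median TR minus KO difference -0.034. Both are the values of Ccnd2, which changed sign without KO replicate 3. Over all genes the calls in TR against KO (561) ranged from 278 to 680 with 1 array left out and those in KO against HE (357) became 82 without the batch term, 9 with only the 2 groups and 12 where batch was a random block. For age, 0 members became 1 with array weights (Mcm6, limma adjusted p = 0.0315; 120 genes called) and 2 with only batches 1 and 2 (Mcm6 and Nusap1, limma adjusted p = 0.0159 and 0.0420; 259 genes called). In TR against KO, KO against HE, TR against HE, TR against WT and HE against WT the limma count stayed at 0 in each setting run, as it did for the interactions, whose alternatives were added after seeing the data. The block changed no other call. Some values near 0 changed sign, and the cause was not tested. Leaving out single arrays took Top2a in KO minus WT from -0.18 to 0.086 (above 0 without KO replicate 1 and, at 0.053, without WT replicate 3) and in TR minus KO from -0.052 (without KO replicate 1) to 0.30. It took Ccnd2 in KO minus WT from -0.018 (without KO replicate 3) to 0.20, and in TR minus KO from -0.14 to 0.19 (above 0 without KO replicate 3 and, at 0.041, without TR replicate 3). With age it took Foxm1 from -0.018 (without TR replicate 6) to 0.12 and Racgap1 from -0.019 (below 0 without WT replicate 4 and, at -0.0035, without KO replicate 6) to 0.071. Other settings gave 0.18 for Top2a in KO minus WT in batch 1 alone and 0.0018 for Ccnd2 in TR minus KO with array weights. With age they gave -0.023 (array weights) and -0.00089 (without the KO arrays) for Foxm1, -0.062 for Racgap1 in batch 2 alone and 0.013 for Ccnd1 in batch 1 alone.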
